A study of Homo sapiens with 6 samples.

Results

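L1CAM and 8 other adhesion molecules of the immunoglobulin superfamily (ICAM1, F11R, NECTIN2, BSG, MCAM, ALCAM, ESAM and MPZL2) were followed across 6 RNA-seq libraries of a breast cancer line. The 9 genes were taken by symbol from a deposited table of 15024 genes, and all 9 were found and passed the filter on low values. They had been picked with the difference between the 2 populations below in view. Their fold changes and intervals are therefore a description. Whether a gene was called by limma is given beside the share of all genes called, and counts as no evidence about the 9.

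MDA-MB-231 is a human cell line grown from a triple-negative breast cancer. The cells used were labelled Mll3-null, that is, lacking the histone methyltransferase MLL3 (KMT2C). Every sample had received 10 µM forskolin, which activates adenylyl cyclase and so protein kinase A, for 14 days. Cells were then sorted into a CD44+ CD104high population (n = 3) and a CD44+ population labelled CD104-/low, called CD104low here (n = 3). CD104 is integrin beta-4, and the study's design calls CD104high cells hybrid between epithelial and mesenchymal states and CD104low cells mesenchymal. The sources used here do not say whether the Mll3-null cells were 1 clone or a pool, or whether the numbered biological replicates share a day or culture, so errors measure the spread between these samples. Wild-type and untreated cells were not analysed here.

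Immunoglobulin-superfamily adhesion molecules are membrane proteins with immunoglobulin-like domains outside the cell, through which they bind copies of themselves or other partners on neighbouring cells. L1CAM guides axons in the nervous system and is also found at the invasive edge of carcinomas, where it can be shed by ADAM proteases. ICAM1 is the endothelial and epithelial ligand of leukocyte beta-2 integrins and is induced by NF-kB and interferon signalling. F11R, also called JAM-A, sits at tight junctions, NECTIN2 at adherens junctions, MPZL2 on epithelia and ESAM mainly at endothelial junctions. MCAM and ALCAM are known from melanoma, vessels and leukocyte adhesion, and BSG, or basigin, escorts lactate transporters to the cell surface.

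Levels are scaled read counts, that is, reads per gene divided by 1 factor per library, as deposited. Between 49791498 and 60069719 reads per library fell on the listed genes. ITGB4, the gene of the sort marker, was at 15445, 14508 and 19435 in CD104high and at 1492, 2273 and 1333 in CD104low, while CD44, which both gates required, averaged 25592 ± 3169 in CD104high against 24650.5 ± 1232 in CD104low (SD, n = 3 per population). KMT2C, the targeted gene, still gave 3934, 3561 and 3952 in CD104high and 2095, 2611 and 2814 in CD104low, and a value over the whole gene does not check a deletion. Of the genes whose low levels make a tumour triple-negative, ERBB2 averaged 8165 ± 409 in CD104high against 6519 ± 430.3 in CD104low (SD, n = 3 per population; log2 fold change 0.33, limma adjusted p = 0.00621). ESR1 and PGR were not analysed here.

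RefSeq promoters (GRCh38.p14, 250 bases before and 50 after a start site of the gene in RefSeq) were at hand for 6 of the 9 genes. Those of ICAM1, L1CAM and MCAM, and a BSG promoter not shown, lie inside the gene spans of GENCODE given with the values. They therefore surround a start other than the outermost one. The NECTIN2 window includes the outermost start, but its RefSeq start site lies further into the gene. Those of ICAM1 and L1CAM are shown because these genes differed most between the populations. Those of MCAM and NECTIN2 are shown because they hold a full cAMP response element. Their log2 fold changes were -0.13 and 0.05, and MCAM was at -0.31 with a correction for transcript length and GC content. Both populations had received forskolin, so these values do not show whether either gene responded to it. The windows were searched on both strands, after they had been seen, for the cAMP response element TGACGTCA, the NF-kB motif GGAAATTCC and the STAT motif TTCNNNGAA. The shorter E-box motif of the letters CAGGTG was also searched, and so were the AP-1 motif with the letters TGANTCA, which is bound by factors of the FOS and JUN families, and the TATA box, which is spelled as TATAAA in these searches. Matches are in capitals and none overlapped another. The coordinates are chr19:10270870-10271169 on the plus strand for ICAM1, chrX:153875895-153876194 on the minus strand for L1CAM, chr11:119317081-119317380 on the minus strand for MCAM and chr19:44846047-44846346 on the plus strand for NECTIN2, each printed 5′ to 3′ along the gene.
ICAM1: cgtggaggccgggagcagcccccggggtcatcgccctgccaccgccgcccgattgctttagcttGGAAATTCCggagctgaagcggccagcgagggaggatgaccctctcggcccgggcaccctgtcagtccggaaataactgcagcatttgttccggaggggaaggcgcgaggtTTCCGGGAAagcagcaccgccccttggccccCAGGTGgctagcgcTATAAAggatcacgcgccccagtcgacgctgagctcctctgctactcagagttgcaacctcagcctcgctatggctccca
L1CAM: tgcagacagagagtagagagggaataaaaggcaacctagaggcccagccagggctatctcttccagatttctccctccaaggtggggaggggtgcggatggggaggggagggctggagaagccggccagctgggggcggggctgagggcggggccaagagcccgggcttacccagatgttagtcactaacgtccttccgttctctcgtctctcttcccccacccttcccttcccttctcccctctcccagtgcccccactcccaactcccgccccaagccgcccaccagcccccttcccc
MCAM: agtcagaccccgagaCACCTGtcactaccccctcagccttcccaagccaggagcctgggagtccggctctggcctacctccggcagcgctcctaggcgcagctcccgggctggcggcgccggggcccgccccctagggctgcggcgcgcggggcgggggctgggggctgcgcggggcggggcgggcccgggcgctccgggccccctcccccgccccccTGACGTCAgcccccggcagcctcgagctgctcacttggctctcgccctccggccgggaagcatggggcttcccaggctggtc
NECTIN2: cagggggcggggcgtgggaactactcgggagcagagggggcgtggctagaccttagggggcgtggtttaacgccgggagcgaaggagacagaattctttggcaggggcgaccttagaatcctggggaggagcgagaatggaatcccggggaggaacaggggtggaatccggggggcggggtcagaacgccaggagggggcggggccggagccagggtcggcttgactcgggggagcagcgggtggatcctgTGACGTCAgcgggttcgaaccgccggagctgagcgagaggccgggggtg

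The ICAM1 promoter held 4 of the 6 motifs. Positions count from the RefSeq start site of each window, with bases before it negative. The NF-kB letters GGAAATTCC began at -186 and occurred in 0.461% of 35116 promoters in the RefSeq table. The STAT letters TTCCGGGAA began at -75, the E-box at -44 and the TATA box at -30, and these motifs occurred in 7.66%, 20.6% and 11.5% of promoters. The cAMP response element was present in 1.85% of promoters, and began at -32 in MCAM and at 1, just past the RefSeq start site, in NECTIN2. ALCAM and 1 of the 2 listed BSG promoters held an E-box, as did MCAM, and the other BSG promoter held a TATA box. The AP-1 motif, present in 7.71% of promoters, was in none of them. None of the 6 motifs was found in either listed window of L1CAM, and its outermost GENCODE start was not searched. A match is a run of letters and does not show binding, and its absence from a window says nothing of the factor.

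CD104high cells had higher levels of L1CAM, ICAM1 and F11R and lower levels of MPZL2, with ESAM and ALCAM lower by less. MCAM (log2 fold change -0.13) was close to ALCAM (-0.17), but its libraries overlapped and it was not called. NECTIN2 and BSG were near equal. Set against all 14420 genes tested with limma (adjusted p under 0.05), where 43.4% were called, 21.8% as higher and 21.6% as lower in CD104high, 3 of the 9 genes were called higher (L1CAM, ICAM1, F11R) and 2 lower (MPZL2, ALCAM). The libraries of the populations did not overlap in the same 5 genes, as in 54.3% of all genes tested, 27.4% with CD104high above and 26.9% with CD104high below. In the authors' deposited table, where 45.7% of genes with an adjusted p passed 0.05, L1CAM, ICAM1, F11R and MPZL2 passed. Because the genes were picked on this contrast, nothing is read from these shares. The median log2 fold change of the 9 was -0.02, and that of all genes tested 0.02.

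**Figure D1:**
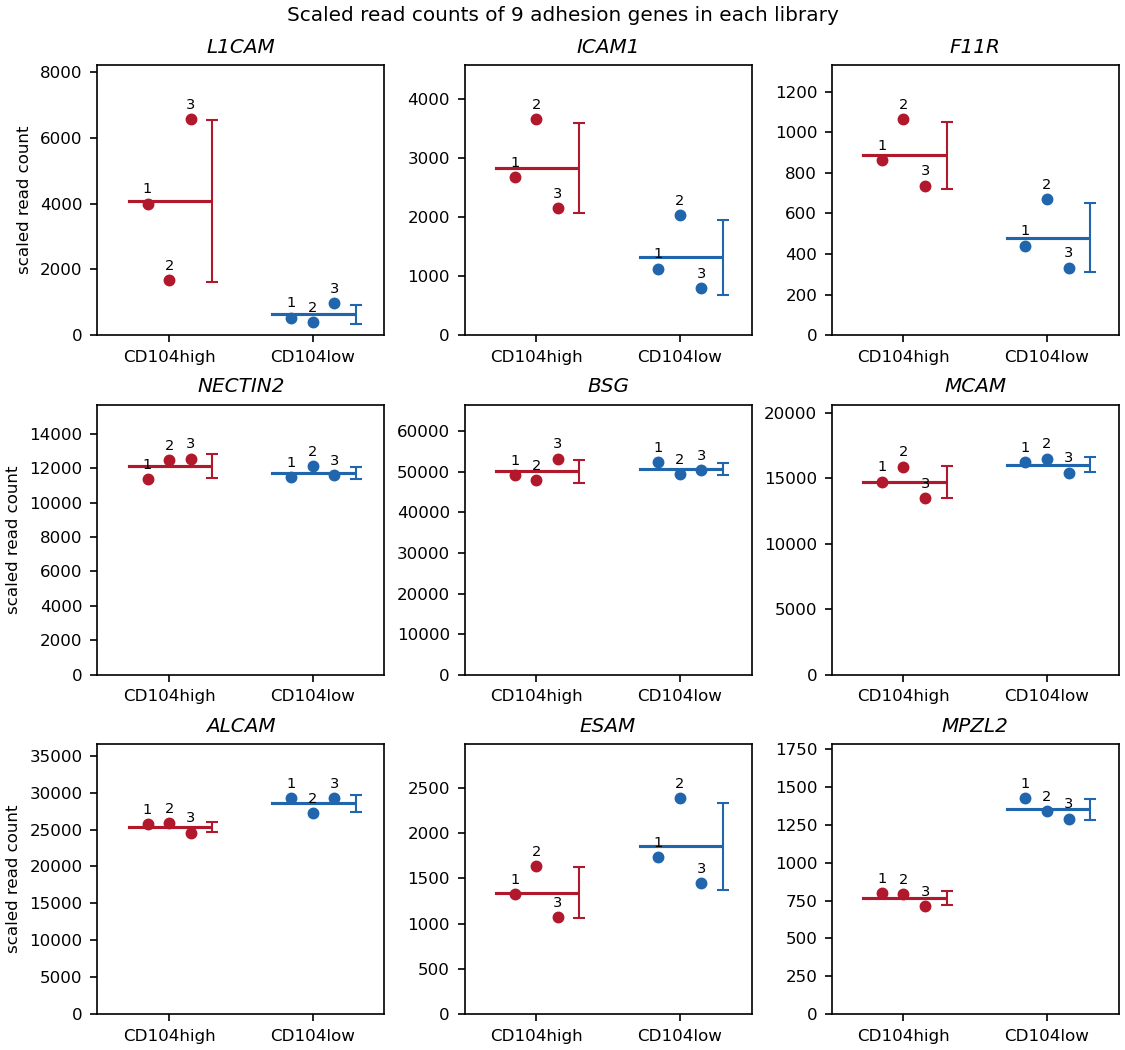
Scaled read counts (vertical axes, linear from 0) of the 9 genes in CD104high (red) and CD104low (blue) libraries, numbered by replicate, with the mean as a line and the SD as a bar (n = 3 each). L1CAM, ICAM1 and F11R are higher in every CD104high library than in any CD104low library, and MPZL2 and ALCAM lower.

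L1CAM (ENSG00000198910.14; GRCh38 chromosome X, 153861514 to 153886174, minus strand) had the largest difference. Its scaled read counts were 4005, 1667 and 6575 in CD104high and 537, 390.3 and 968 in CD104low. Every CD104high library lay above every CD104low library, although the CD104high libraries themselves differed 3.94-fold from lowest to highest and the CD104low libraries 2.48-fold. The mean was 4083 ± 2455 in CD104high against 632 ± 300.3 in CD104low (SD, n = 3 per population). This corresponded to a log2 fold change of 2.58 (SE 0.48), or 5.99-fold, with a 95% interval from limma of 2.83 to 12.7-fold. On the log2(value + 1) scale used for all fold changes here, 10 genes of the table had a larger rise. No gene in the table was at 0 in any library, so genes without reads in either population could not be ranked. Leaving out replicate 2 of CD104high, the log2 fold change was 3.12, and without replicate 3 of CD104high 2.13.

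ICAM1 (ENSG00000090339.9; chromosome 19, 10270835 to 10286615, plus strand) was at 2677, 3654 and 2149 in CD104high and at 1121, 2029 and 793 in CD104low. The lowest CD104high library was only just above the highest CD104low library. The mean was 2827 ± 763 in CD104high against 1314 ± 640.4 in CD104low (SD, n = 3 per population), a log2 fold change of 1.18 (SE 0.31) or 2.27-fold, with a 95% interval of 1.38 to 3.72-fold. The call of ICAM1 was lost in limma without the intensity trend, and when either replicate 2 of CD104high or replicate 1 of CD104low was left out.

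F11R (ENSG00000158769.18; chromosome 1, 160995211 to 161021348, minus strand) was at 861, 1063 and 736 in CD104high and at 440.5, 668 and 332 in CD104low. The populations were again apart by a narrow margin, and the order of the libraries matched that of ICAM1. The mean was 887 ± 165 in CD104high against 480.4 ± 171 in CD104low (SD, n = 3 per population), a log2 fold change of 0.93 (SE 0.24, 95% interval 0.38 to 1.47), or 1.90-fold. Its call ended without replicate 1 of CD104low. F11R was the only member of the junctional adhesion molecule family among the 9, and its relatives are described further on.

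MPZL2 (ENSG00000149573.9; chromosome 11, 118253403 to 118264536, minus strand) was the clearest gene on the lower side. It was at 797, 792 and 713 in CD104high and at 1425, 1339 and 1289 in CD104low. The libraries of each population lay close together and far from those of the other. The mean was 767 ± 47.2 in CD104high against 1351 ± 68.7 in CD104low (SD, n = 3 per population), a log2 fold change of -0.82 (SE 0.09, 95% interval -1.02 to -0.61). With a correction of each library for transcript length and GC content it was -0.52.

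ESAM (ENSG00000149564.12; chromosome 11, 124752583 to 124762290, minus strand) was at 1327, 1634 and 1070 in CD104high and at 1736, 2386 and 1448 in CD104low. Replicate 2 of CD104high overlapped with CD104low. The log2 fold change was -0.46 (SE 0.20, 95% interval -0.91 to -0.01) and was not called, though it was in 4 of 17 alternative fits, among them those that left out either replicate 2 of CD104high (-0.61) or replicate 3 of CD104low (-0.62), and in DESeq2 (-0.47), which called 45.7% of genes. An antisense gene within its span, AP000866.2, averaged 49.2 ± 6.65 in CD104high against 70.8 ± 8.71 in CD104low (SD, n = 3 per population). No source used here says whether the counting was strand-aware, so reads that both genes could claim cannot be told apart.

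ALCAM (ENSG00000170017.12; chromosome 3, 105366909 to 105576900, plus strand) was abundant and differed little. It was at 25713.5, 25824 and 24567 in CD104high and at 29214, 27239 and 29239 in CD104low. The populations were apart, but by a small step: the log2 fold change was -0.17 (SE 0.06, 95% interval -0.30 to -0.04). Its call ended in 8 of the 17 alternative fits, among them 5 that left out a library, quantile normalization (-0.08) and the length and GC correction (-0.09).

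MCAM, NECTIN2 and BSG had libraries that overlapped between the populations. MCAM (ENSG00000076706.17; chromosome 11, 119308529 to 119321521, minus strand) was at 14723, 15873 and 13468.5 in CD104high and at 16200.5, 16478 and 15407 in CD104low, a log2 fold change of -0.13 (SE 0.07, 95% interval -0.29 to 0.03). It was called with the length and GC correction, at -0.31. The gene CBL on the other strand overlaps its annotated span, with 7043 ± 788 in CD104high against 6675 ± 522 in CD104low (SD, n = 3 per population).

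NECTIN2 (ENSG00000130202.10; chromosome 19, 44846175 to 44889228, plus strand) was at 11357, 12479 and 12552 in CD104high and at 11467, 12110.4 and 11578 in CD104low. Its log2 fold change of 0.05 (SE 0.06) had a 95% interval of -0.09 to 0.19. BSG (ENSG00000172270.20; chromosome 19, 571277 to 583493, plus strand) was at 49215.5, 47893 and 53240.3 in CD104high and at 52391, 49443 and 50389.8 in CD104low. Its log2 fold change of -0.02 (SE 0.06) had a 95% interval of -0.17 to 0.13. An antisense gene within the BSG span, AC009005.1, averaged 91.1 ± 28.6 in CD104high against 89.5 ± 17.1 in CD104low (SD, n = 3 per population). The intervals of MCAM, NECTIN2 and BSG bound the difference and do not show that the populations are equal.

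**Figure D2:**
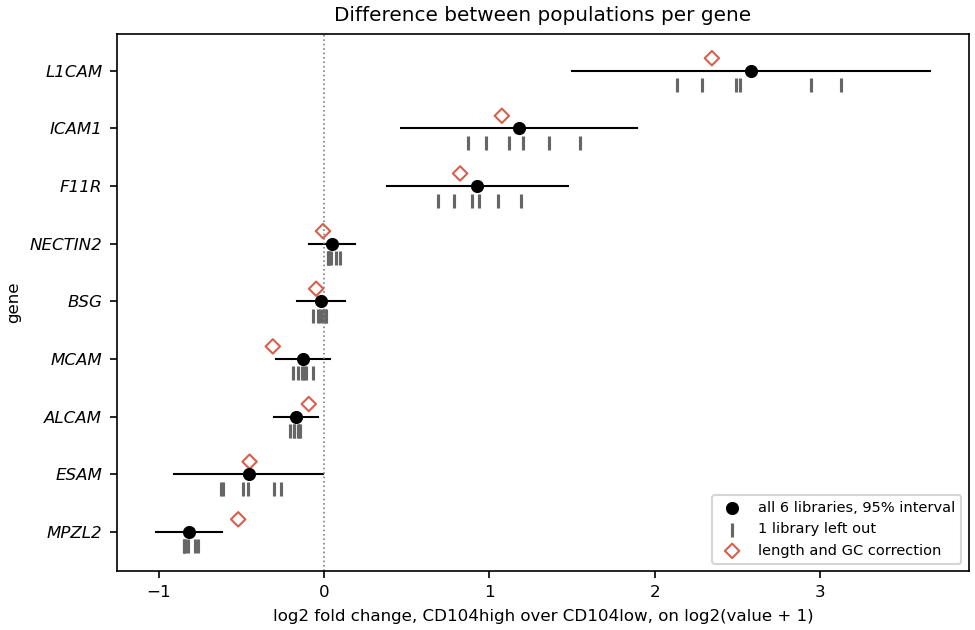
Log2 fold change of CD104high over CD104low on log2(value + 1) (horizontal axis) for each gene (rows), with the limma estimate and its 95% interval (black), the 6 fits that leave out 1 library (ticks) and the length and GC correction (diamonds). L1CAM lies at 2.58 and MPZL2 at -0.82, while NECTIN2 and BSG lie at 0.05 and -0.02.

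The libraries within a population also differed. The difference between populations that was in view when the genes were picked rests on these same libraries, so this too is a description. L1CAM was highest in replicate 3 and lowest in replicate 2 of both populations, with deviations from the population's mean log2 value of 0.18, -1.08 and 0.90 for replicates 1 to 3 of CD104high and of -0.13, -0.59 and 0.72 in CD104low. ICAM1, F11R, ESAM and MCAM had the opposite order, highest in replicate 2 and lowest in replicate 3 of both populations. ICAM1 deviated by -0.04, 0.40 and -0.36 in CD104high and by -0.12, 0.74 and -0.62 in CD104low. F11R deviated by -0.03, 0.28 and -0.25 in CD104high and by -0.07, 0.54 and -0.47 in CD104low.

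Of the 9 genes, 6 had the same order of replicate numbers in both populations, and 27.8% of all genes tested did. The order of L1CAM in both populations was shared by 11.3% of genes tested and that of ICAM1 by 7.69%. The SD within populations, pooled on the log2 scale, was 0.85 for L1CAM, 0.56 for ICAM1, 0.40 for F11R and 0.34 for ESAM, against a median of 0.14 over all genes tested. It was 0.05 to 0.09 for ALCAM, BSG, NECTIN2, MPZL2 and MCAM. The sort marker ITGB4 was also highest in replicate 3 of CD104high, but in CD104low it was lowest in replicate 3, where L1CAM was highest. The part of any shared culture or handling in these orders was not tested.

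**Figure D3:**
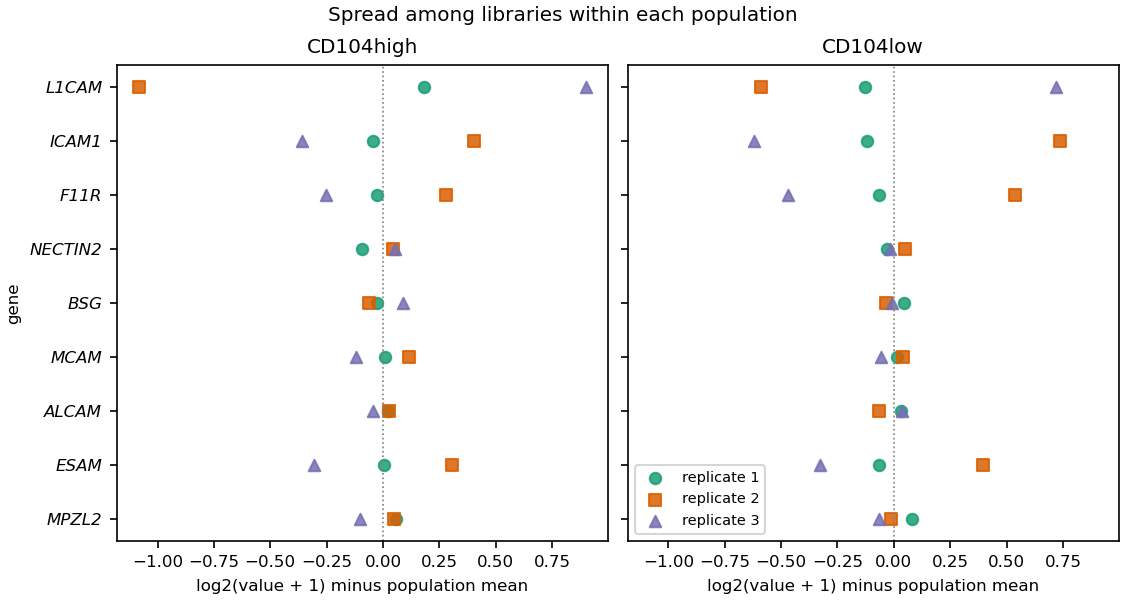
Deviation of each library from its population's mean on log2(value + 1) (horizontal axis) for the 9 genes (rows) in CD104high (left) and CD104low (right), marked by replicate number. L1CAM spans -1.08 to 0.90 in CD104high, with replicate 3 on the high side, where ICAM1, F11R and ESAM have replicate 2.

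Levels of different genes were compared per kilobase of the longest coding transcript of GENCODE 29, which need not be the transcript expressed. BSG led in both populations, with 25350 ± 1409 scaled reads per kilobase in CD104high and 25666 ± 761 in CD104low (SD, n = 3 per population). It made up 59.0% of the summed level per kilobase of the 9 genes in CD104high and also 59.0% in CD104low. ALCAM came next in both populations, at 5396 ± 148 in CD104high against 6076 ± 244 in CD104low, and NECTIN2 and MCAM followed with libraries that overlapped each other.

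The lower part of the order differed between the populations. In CD104high, ICAM1 (869 ± 235), L1CAM (794 ± 478) and ESAM (736 ± 155 per kilobase) overlapped, above MPZL2 (293 ± 18.0) and F11R (183 ± 34.2). In CD104low, ESAM (1017 ± 263) was above MPZL2 (516 ± 26.2), which overlapped with ICAM1 (404 ± 197), and L1CAM (123 ± 58.4) overlapped with F11R (99.4 ± 35.5), the lowest of the 9. L1CAM thus made up 1.85% of the summed level per kilobase in CD104high and 0.283% in CD104low. The sum over the 9 genes was 42225, 42435 and 44261 per kilobase in CD104high and 44289, 43344 and 42839 in CD104low, and so overlapped. In bulk samples, fewer cells with a transcript and less of it per cell cannot be told apart.

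**Figure D4:**
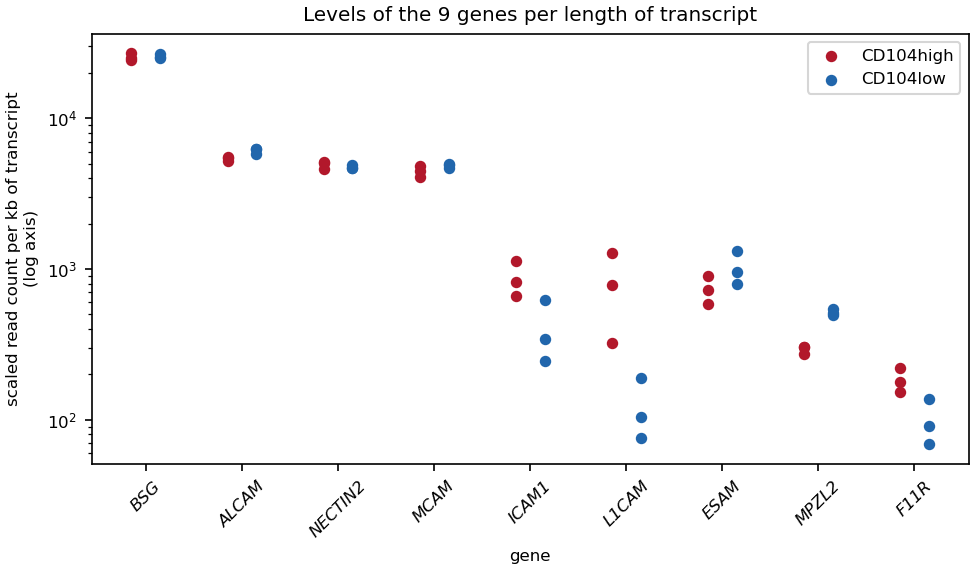
Scaled read count per kilobase of transcript (vertical log axis) of the 9 genes in CD104high (red, left of each pair) and CD104low (blue) libraries, ordered by the CD104high mean. BSG is highest in every library, and ICAM1, L1CAM, ESAM and MPZL2 take other places in CD104low than in CD104high.

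The genes whose profile over the 6 libraries was most like that of L1CAM were found by the root mean square difference of log2(value + 1), each gene centred on its own mean, among 12510 genes with a mean of at least 50. They were ALPP, the placental alkaline phosphatase (0.27 log2 units), EHD3, an endosomal trafficking ATPase (0.30), IRX3, a homeobox factor (0.33), ANXA8L1, an annexin with a near-identical copy (0.33), and GGT5, a gamma-glutamyltransferase (0.36). ALPP was at 1510, 978 and 2621 in CD104high and at 297, 237 and 440.2 in CD104low. As with L1CAM, replicate 3 was highest and replicate 2 lowest in both populations, a likeness that the search itself selected for. A like profile over 6 libraries of 2 populations is a description.

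Other adhesion genes of the superfamily, with their partners, were taken from 8 lists of 112 genes in all, of which 76 were in the table and 73 were tested. Of these, 25 were called higher and 5 lower in CD104high, where 21.8% of all genes tested were called higher and 21.6% lower. In either direction 41.1% of the 73 were called, against 43.4% of all genes tested. The median log2 fold change was 0.26 against 0.02. Without replicate 1 of CD104low, 17 of the 73 were called, and calls among all genes fell as well, from 6257 to 4097. The shares of all genes tested are repeated beside the limma counts of the lists below. No such share was counted at an unadjusted p under 0.05, so counts at that threshold stand alone.

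Among relatives of L1CAM, NCAM2, the second neural cell adhesion molecule, was called higher, at 417 ± 161 in CD104high against 197 ± 62.8 in CD104low (SD, n = 3 per population; log2 fold change 1.04, SE 0.31, limma adjusted p = 0.0260). Its libraries overlapped, and that call ended in 6 of 17 alternative fits. NRCAM (0.44) and CNTN1 (-0.06) were not called, and the other 7 genes listed for this family apart from CNTN2, which was below the filter, were not analysed here.

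The partners and proteases of L1CAM gave 6 higher and 1 lower among 18, beside 21.8% higher and 21.6% lower of all genes tested. NRP1, a semaphorin co-receptor that binds L1CAM, was at 20012, 18234 and 21424.5 in CD104high and at 8186, 8063 and 9332 in CD104low. The populations were far apart, at 2.33-fold (log2 fold change 1.22, SE 0.08, limma adjusted p = 0.000173). FGFR1, a growth factor receptor that L1CAM can activate, rose by 0.53 on the log2 scale, and RDX, which encodes the membrane-actin linker radixin, fell by 0.17 with a call that ended in 9 of 17 alternative fits. The abundant ITGB1 (0.13) and AP2M1 (-0.03), a clathrin adaptor subunit that binds the tail of L1CAM, were not called, though ITGB1 was with the length and GC correction (0.26).

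Of further partners, named after their values were seen, ankyrin-1 (ANK1), of the ankyrin family that anchors L1CAM to the spectrin skeleton, was at 924, 733 and 1289.7 in CD104high and at 328, 334 and 659 in CD104low (log2 fold change 1.20, SE 0.29, limma adjusted p = 0.0106). Its relative ANK2 rose by less (0.48, called), and ANK3 (0.45) had libraries that overlapped and was not called. MSN (-0.04) and EZR (-0.02), listed with RDX, were not called. ITGB3, an integrin chain that binds L1CAM, rose by 1.06. The L1CAM-shedding protease ADAM10 rose by 0.38, while ADAM17 (0.18), the repressor REST (0.13) and SNAI2 (0.22) were not called.

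Of the nectins and their kin, 1 gene was called higher and 2 lower among 6, beside 21.8% and 21.6% of all genes tested. NECTIN1 was at 795, 716 and 713 in CD104high and at 1080, 1122 and 1234 in CD104low (log2 fold change -0.63, SE 0.09, limma adjusted p = 0.00129). The populations did not overlap. PVR, the poliovirus receptor, fell by 0.32, and AFDN, which encodes the nectin-binding scaffold afadin, rose by 0.28. The AFDN call ended in 5 of 17 alternative fits, among them the length and GC correction (0.08), and the PVR call ended without replicate 1 of CD104high. NECTIN3 (-0.19) and CADM4 (-0.02) were not called, though NECTIN3 was (-0.28) without replicate 2 of CD104low.

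The JAM and CTX family with its tight junction scaffolds gave 2 higher and 1 lower among 9. Of all genes tested, 21.8% were called higher and 21.6% lower. TJP3, the scaffold ZO-3, was at 75.1, 64.4 and 136.9 in CD104high and at 31.2, 23.3 and 16.8 in CD104low, 3.67-fold apart (log2 fold change 1.87, SE 0.35, limma adjusted p = 0.0035). Its levels were low in both populations, and the libraries did not overlap. TJP1 rose by 0.33, or 0.14 and uncalled with the length and GC correction. CLMP, an adhesion molecule related to the coxsackievirus receptor, fell by 0.24, with a call that ended in each of the 6 fits that left out a library. PARD3 (0.06) and CXADR (0.26) were not called.

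Among ligands of leukocyte integrins and related molecules, CD47, the SIRP-alpha ligand, and ICAM5, a neighbour of ICAM1 on chromosome 19, were called higher and no gene lower among 6 tested in limma. Limma called 21.8% of all genes tested higher and 21.6% lower. At an unadjusted p under 0.05, 3 of the list were higher and 0 lower. DESeq2 called 2 of the list higher and 0 lower, and 45.7% of all genes in either direction. CD47 was at 5285 ± 465 in CD104high against 3897 ± 48.4 in CD104low (SD, n = 3 per population; log2 fold change 0.44, SE 0.07, limma adjusted p = 0.00218), and ICAM5 rose by 0.80. The ICAM5 call was lost when either replicate 2 of CD104high or replicate 1 of CD104low was left out. ITGB2, the integrin chain that binds ICAM1, was low, at 116 ± 13.4 in CD104high against 69.1 ± 32.9 in CD104low, and was not called, though it was (log2 fold change 1.19) without replicate 3 of CD104low. Neither was CD58 (-0.13), the ligand of CD2, called. VCAM1 was not analysed here.

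The basigin family and its partners gave 1 higher and 1 lower among 8, beside 21.8% and 21.6% of all genes tested. SLC16A8, a lactate transporter best known from retinal pigment epithelium, was at 47.6, 43.2 and 44.6 in CD104high and at 20.1, 16.2 and 3.37 in CD104low (log2 fold change 1.98, SE 0.56, limma adjusted p = 0.0204). These are low values. The log2 fold change was 1.28 without replicate 3 of CD104low, and the call ended without replicate 1 of CD104high. SLC16A7 fell by 0.42, with a call that ended in 5 of 17 alternative fits. SLC16A3, the abundant lactate exporter that basigin escorts, was at 40523 ± 2407 in CD104high against 36840 ± 2642 in CD104low (SD, n = 3 per population) and was called with quantile normalization only, and PPIA, the cyclophilin that binds basigin, was at -0.19 and not called. SLC16A1, named after its values were seen, was at only 16.7 ± 9.69 in CD104high against 13.0 ± 4.24 in CD104low (SD, n = 3 per population).

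MPZL1, the relative of MPZL2, moved the other way, rising by 0.27 with 10864.5 ± 272 in CD104high against 9040 ± 193 in CD104low (SD, n = 3 per population; limma adjusted p = 0.00523). MPZL3 was at -0.13 and not called. Of 21 other immunoglobulin-type receptors tested, 11 were called higher and 0 lower in limma, where 21.8% of all genes tested were called higher and 21.6% lower. The median log2 fold change of the 21 was 0.70. At an unadjusted p under 0.05, 12 were higher and 0 lower. DESeq2 called 12 higher and 0 lower, and 45.7% of all genes in either direction. PTPRU, a receptor phosphatase with an immunoglobulin domain, was at 1605, 1439 and 2416 in CD104high and at 443.5, 537 and 467 in CD104low, 3.68-fold apart (log2 fold change 1.88, SE 0.18, limma adjusted p = 0.00029). PTPRK rose by 0.76 and BCAM, the Lutheran laminin receptor, named after its values were seen, by 1.02. CDON, a co-receptor of hedgehog signalling, rose by 1.36 and PTPRM, a homophilic receptor phosphatase, by 0.98, both also named after their values were seen. PTK7 (0.12) and ROBO3 (0.05) were not called.

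**Figure D5:**
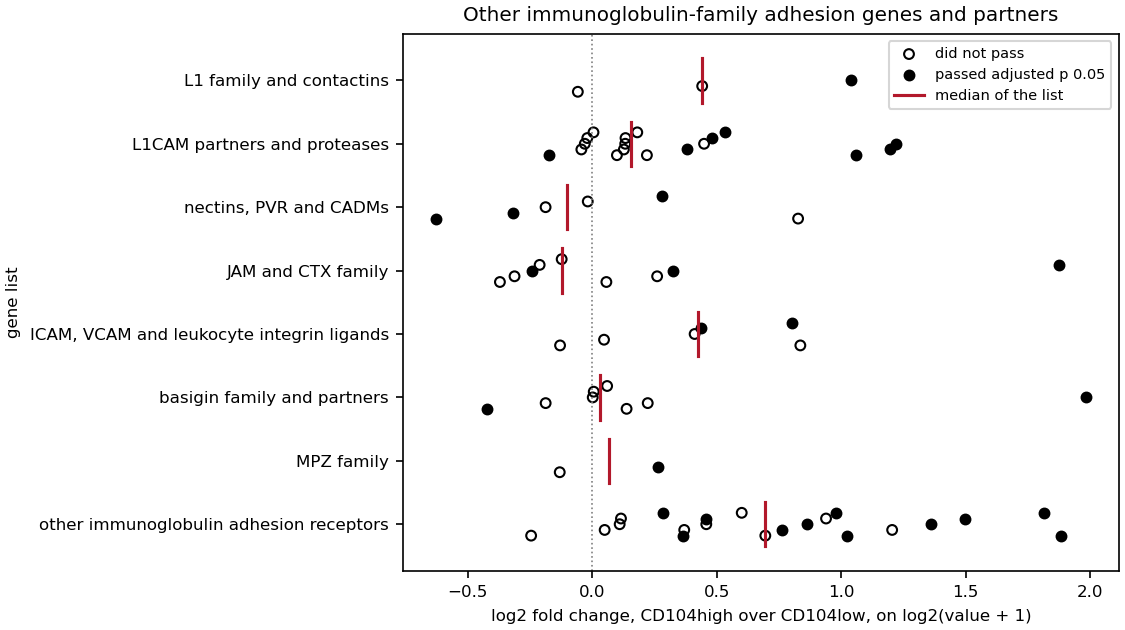
Log2 fold change of CD104high over CD104low on log2(value + 1) (horizontal axis) for 73 other adhesion genes and partners in 8 lists (rows), filled where the limma adjusted p was under 0.05, with the median of each list in red. The list of other immunoglobulin adhesion receptors has its median at 0.70 and no gene called lower, and the nectin list has 2 of 6 genes called lower. Of all genes tested, 21.8% were called higher and 21.6% lower.

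Because MCAM, ESAM and ICAM1 are also expressed by vessels and leukocytes, and L1CAM by nerve sheath cells, markers of those cells were read in the same libraries. Of 12 endothelial markers 6 were in the table and 3 were tested, and 0 were called by limma, by DESeq2 or at an unadjusted p under 0.05. CDH5 and VWF, which define endothelium, were not analysed here. PECAM1 was at 5.82 ± 2.62 in CD104high against 9.90 ± 5.37 in CD104low (SD, n = 3 per population), and the summed level of the list, mostly EGFL7, was 2642 to 3353 in CD104high and 2556 to 2761 in CD104low. Of 12 leukocyte markers 5 were in the table, among them neither PTPRC nor CD3E. Of the 4 tested, 2 (LAPTM5, CD14) were called higher, with a summed level of 930.0 to 1172 in CD104high and 547 to 626 in CD104low. Beside this and the 2 lists that follow, 21.8% of all genes tested were called higher. Of 9 nerve sheath and neural markers 3 were in the table and tested, and ERBB3 alone was called higher (log2 fold change 0.92, limma adjusted p = 0.00403). It was at 581 ± 83.0 in CD104high against 309 ± 69.3 in CD104low (SD, n = 3 per population). SOX10, at 15.4 ± 9.08 in CD104high against 11.2 ± 4.51 in CD104low, and TUBB3 (log2 fold change 0.10) were not called. The summed level of that list, mostly ERBB3, was 685 to 811 in CD104high and 384 to 533 in CD104low. Of 8 fibroblast markers 7 were in the table, and 3 of the 4 tested were called higher. These were COL1A2 (log2 fold change 1.73), LUM (1.61) and PDGFRB (1.07), while COL1A1 (0.31) was not called. COL1A2 averaged 560 ± 179 in CD104high against 170 ± 64.6 in CD104low, and PDGFRB 2221 ± 483 against 1062 ± 270 (SD, n = 3 per population). The summed level of the list was 3769 to 4788 in CD104high and 2048 to 2540 in CD104low. PDGFRA, THY1 and DCN averaged under 10 in both. The libraries came from a sorted cell line, so the markers were read only as levels beside the adhesion genes. The part of these markers in the adhesion gene differences was not tested.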

How the data were processed

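RNA-seq was measured in 6 sorted samples, 3 CD104high and 3 CD104low. Tools named in the submitters' processing notes, with no order, are Salmon 1.3.0, DESeq2 and FastQC, and the build is GRCh38 (hg38). The sources used here give no annotation release, filter or model. The authors deposited, per the file headers, a scaled read signal for each gene and library. They also deposited the log2 fold change of CD104high over CD104low, its standard error, and a raw and an adjusted p-value. Each library's signal was a whole multiple of 1 step, within 0.01 for 100% of values, so whole reads were recovered for count tests. The step was close to 1 in replicates 1 and 2 of CD104low.

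limma 3.58.1 (R 4.3.3) with an intensity trend was run on log2(value + 1) of 14420 genes with at least 10 in at least 3 samples, with Benjamini-Hochberg adjustment over all of them and a threshold of 0.05. Alternatives included edgeR 4.0.16 and DESeq2 1.42.0. The code was tested on simulated data. GENCODE 29 (GRCh38) gave positions, lengths and GC content for 99.8% of genes, and RefSeq the promoters. Text names all 9 members, the 2 called genes of smallest p in each direction and 2 uncalled genes (highest mean) per list, and the 5 profiles most like L1CAM. Members and lists were chosen with earlier results of these data known. No replicate pair was identical, and pairs within a population differed beyond sampling noise (chi-square over its degrees of freedom, 12.7 to 44.6).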

Additional observations from a re-analysis of the deposited data

How the results depend on the processing

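With the replicate number as a block, the fit called 7876 genes, 6 of the 9 adhesion genes (ESAM in addition) and 40 of the other adhesion genes, ITGB2 and PPIA among them, against 6257, 5 and 30 without it. Deviations of same-numbered libraries correlated across genes at 0.0836, 0.359 and 0.324, and each library correlated best with its own number, a hint from the data and not from the design. Leaving out 1 library gave 4097 to 6390 genes, 2 to 5 of the 9 and 17 to 29 of the others, lowest each time without replicate 1 of CD104low, where L1CAM and MPZL2 were called. Limma without the trend called 5476 genes and 3 of the 9. L1CAM and MPZL2 were called in all 17 alternatives, and BSG and NECTIN2 in none.

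Directions turned for genes near 0. Over the fits that left out a library, log2 fold changes were -0.063 to 0.013 for BSG, -0.55 to 0.61 for CNTN1, -0.14 to 0.074 for CADM4, -0.24 to 0.032 for MPZL3, -0.15 to 0.40 for PTK7, -0.012 to 0.098 for ROBO3 and -0.026 to 0.15 for CD44. With quantile normalization BSG was 0.12, AP2M1 0.070 and ROBO3 -0.0075. With the length and GC correction NECTIN2 was -0.0058, CNTN1 0.013, PARD3 -0.13, CD58 0.21, SLC16A3 -0.10, PTK7 -0.11, ROBO3 -0.18 and CD44 -0.065. KMT2C was 0.31 there and not called. The causes were not tested. With 3 libraries a population, small differences such as that of ALCAM are at the limit of what these data resolve.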

Other observations

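In the authors' deposited table the log2 fold change of MPZL2 was -0.82 with a standard error of 0.32 (adjusted p = 0.0287), although its 3 libraries per population lay close together and limma gave a standard error of 0.09. The authors' deposited table likewise gave ESAM a standard error of 0.31 and L1CAM 0.68, where limma gave 0.20 and 0.48. For NECTIN2 and BSG the authors' deposited table gave 0.06 and 0.07, near the 0.06 from limma for both. The sources used here do not say which libraries the authors fitted.

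ALCAM, called in limma, had an adjusted p of 0.0531 in the authors' deposited table and was not past 0.05 there.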
